A study of Homo sapiens with 12 samples.

Results

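A set of 41 genes was higher in MEK5DD cells than in parental cells of both MDA-MB-231 and Hs-578T, while cells labelled ERK5-ko lay close to their parental controls in both lines. The members were chosen by their measured values, among 13737 protein-coding genes with an RPKM (reads per kilobase of gene model per 1000000 reads) of at least 0.5 in at least 2 of the 12 libraries. A member had a mean log2(RPKM + 0.5) at least 0.5 above parental in MEK5DD libraries of each line, and less than 0.5 away from parental, in either direction, in ERK5-ko libraries of each line. On this scale small RPKM values count little, so some members of low level passed the window with ERK5-ko RPKM well under parental. These 41 genes are 0.298% of the genes tested. Because the rule used these 4 differences, they are given below as descriptions and carry no test.

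MDA-MB-231 and Hs-578T are established triple-negative breast cancer cell lines of mesenchymal form. Each line gave 2 libraries of parental control cells, 2 of cells labelled ERK5-ko, in which the gene of ERK5 was targeted with CRISPR/Cas9, and 2 of cells labelled MEK5DD, which carry a constitutively active form of MEK5. No drug or other treatment is given for any group, and RNA was taken at 70% confluence throughout. The MDA-MB-231 ERK5-ko line came from 1 surviving clone, which clone of Hs-578T was sequenced is not stated, and how the MEK5DD cells were made is not described in the sources used here. The 2 libraries of a group came from consecutive passages and no source names separate cultures, so the p-values measure only the spread between these libraries, which may be technical. Parental MDA-MB-231 cells were at passages 29 and 30, ERK5-ko cells at 7 and 8 and MEK5DD cells at 10 and 11. Parental Hs-578T cells were at passages 83 and 84, and both engineered Hs-578T lines at 8 and 9, so passage and engineering cannot be told apart.

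MEK5 (MAP2K5) is the kinase that phosphorylates and activates ERK5 (MAPK7), a large MAP kinase that also carries a transcriptional activation domain. The cascade answers growth factors, shear stress and oxidative stress, and its best known nuclear outputs are the MEF2 factors, the Kruppel-like factors KLF2 and KLF4, and immediate early genes of the AP-1 family. Replacing the activating phosphorylation sites of MEK5 with acidic residues (the DD form) gives a kinase that signals without an upstream input, whereas removing ERK5 takes away the known substrate of MEK5.

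The libraries held 20248162 to 27791195 reads, of which 92.05% to 94.5% lay on listed genes. MAP2K5 itself met the rule and is described with the signalling genes. MAPK7 did not, at 13.3 to 18.1 RPKM over the 12 libraries. It was 0.29 and 0.26 log2 units above parental in the ERK5-ko libraries of MDA-MB-231 and Hs-578T. The RNA level thus does not show the targeting, and ERK5-ko here means the libraries labelled so. By Western blot, the paper on these cells reports ERK5 protein strongly reduced in both ERK5-ko lines. ESR1 and PGR stayed at or under 0.12 and 0.348 RPKM, whereas ERBB2, which also marks the subtype by its absence at the protein level, lay between 27.8 and 56.8 RPKM. Of the mesenchymal markers, VIM lay between 1600 and 4070 RPKM, but CDH2 had a parental mean of 0.295 RPKM in MDA-MB-231 against 140 in Hs-578T, and the epithelial keratins KRT8, KRT18 and KRT19 had parental means of 710, 370 and 503 RPKM in MDA-MB-231. The haematopoietic markers PTPRC and CD3E and the endothelial marker CDH5 stayed at or under 0.396 RPKM. The other markers of those cell types that were tested, PECAM1, LYZ and CD14, reached 6.48, 1.5 and 2.15 RPKM. The replicates of parental and MEK5DD Hs-578T stood further apart than those of the other groups (chi-square per degree of freedom 30.7 and 41.9, against 2.81 to 8.78), and the share of reads on mitochondrial protein-coding genes was 0.504% and 0.212% in the parental pair and 1.1% and 0.384% in the MEK5DD pair. Their part in the results was not tested, and the number of members kept without each of these libraries is given with the values by replicate.

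The MEK5DD threshold was passed by different numbers of genes in each line. In MDA-MB-231, 1419 genes were at least 0.5 log2 units above parental, in Hs-578T 585 were, and 99 were in both. Of these 99, 58 missed the window for ERK5-ko: the ERK5-ko mean was at least 0.5 higher than parental for 9 and at least 0.5 lower for 20 in MDA-MB-231, and at least 0.5 higher for 32 and lower for 8 in Hs-578T. On the log2 scale the members had a median MEK5DD difference of 0.75 (MDA-MB-231) and 0.68 (Hs-578T), against -0.01 and -0.08 for all tested genes. Their median ERK5-ko difference was -0.04 and 0.04, with 17 members above 0 in the first line and 25 in the second. For 30 members the MEK5DD difference was the larger in MDA-MB-231, and for 11 it was the larger in Hs-578T. The rule turned round, with MEK5DD at least 0.5 lower in both lines and ERK5-ko within 0.5, was met by 118 genes.

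**Figure D1:**
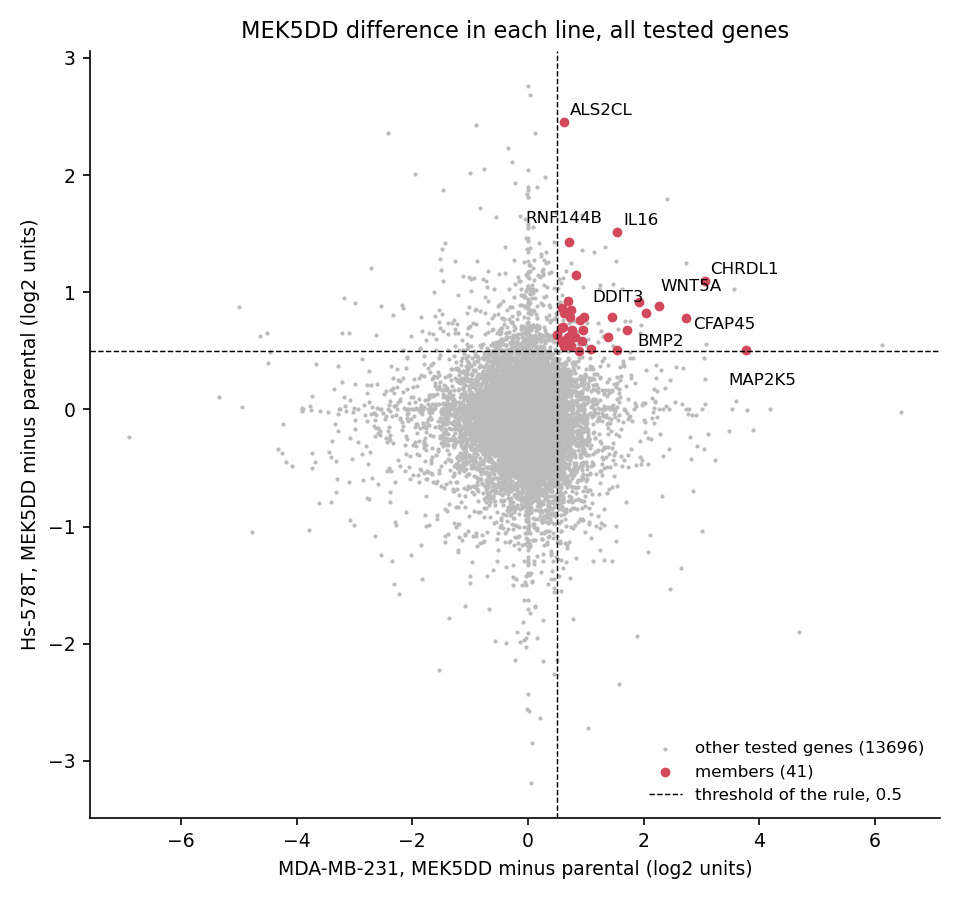
MEK5DD minus parental difference in MDA-MB-231 (horizontal) against Hs-578T (vertical), both in log2 units of RPKM + 0.5, for the 41 members (red) and the other tested genes (grey); dashed lines mark the threshold of 0.5. Members fill the upper right corner by construction, from MAP2K5 (3.77 and 0.50) to ALS2CL (0.63 and 2.45). Grey points in that corner are the 58 genes whose ERK5-ko mean was 0.5 or more from parental, in either direction, in either line.

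Both MEK5DD libraries lay above both parental and both ERK5-ko libraries of their line for 41 of 41 members in MDA-MB-231, and for 37 of 41 in the other line. Over all tested genes, both MEK5DD libraries lay above both parental libraries in both lines for 5.61%, a share beside which the 37 members cannot be read, since the rule used these values. The 4 members with overlap in Hs-578T were LRP1, FOSB, CPT1C and MT-ND3. Nearest inside the MEK5DD threshold were MT-ND3 (0.50), C6orf48 (0.57) and BAMBI (0.59) in MDA-MB-231, and CPT1C, ADTRP and MAP2K5 (0.50 each) in Hs-578T. Just outside it in MDA-MB-231 were TRIB3 (0.499) and GSTO1 (0.485), and in Hs-578T KIAA1211 (0.487), PTPRB (0.479) and RNF152 (0.441). At the ERK5-ko window, ADTRP (-0.485), SLC20A2 (0.462) and MTSS1 (-0.45) lay just inside in MDA-MB-231 and GEM (-0.506), PDCD1LG2 (-0.518) and GCKR (0.541) just outside. In Hs-578T, CTH (0.433), WNT5A (0.433) and FOSB (-0.389) lay inside, and GADD45B (0.502), FJX1 (0.506) and CREB5 (0.536) outside.

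**Figure D2:**
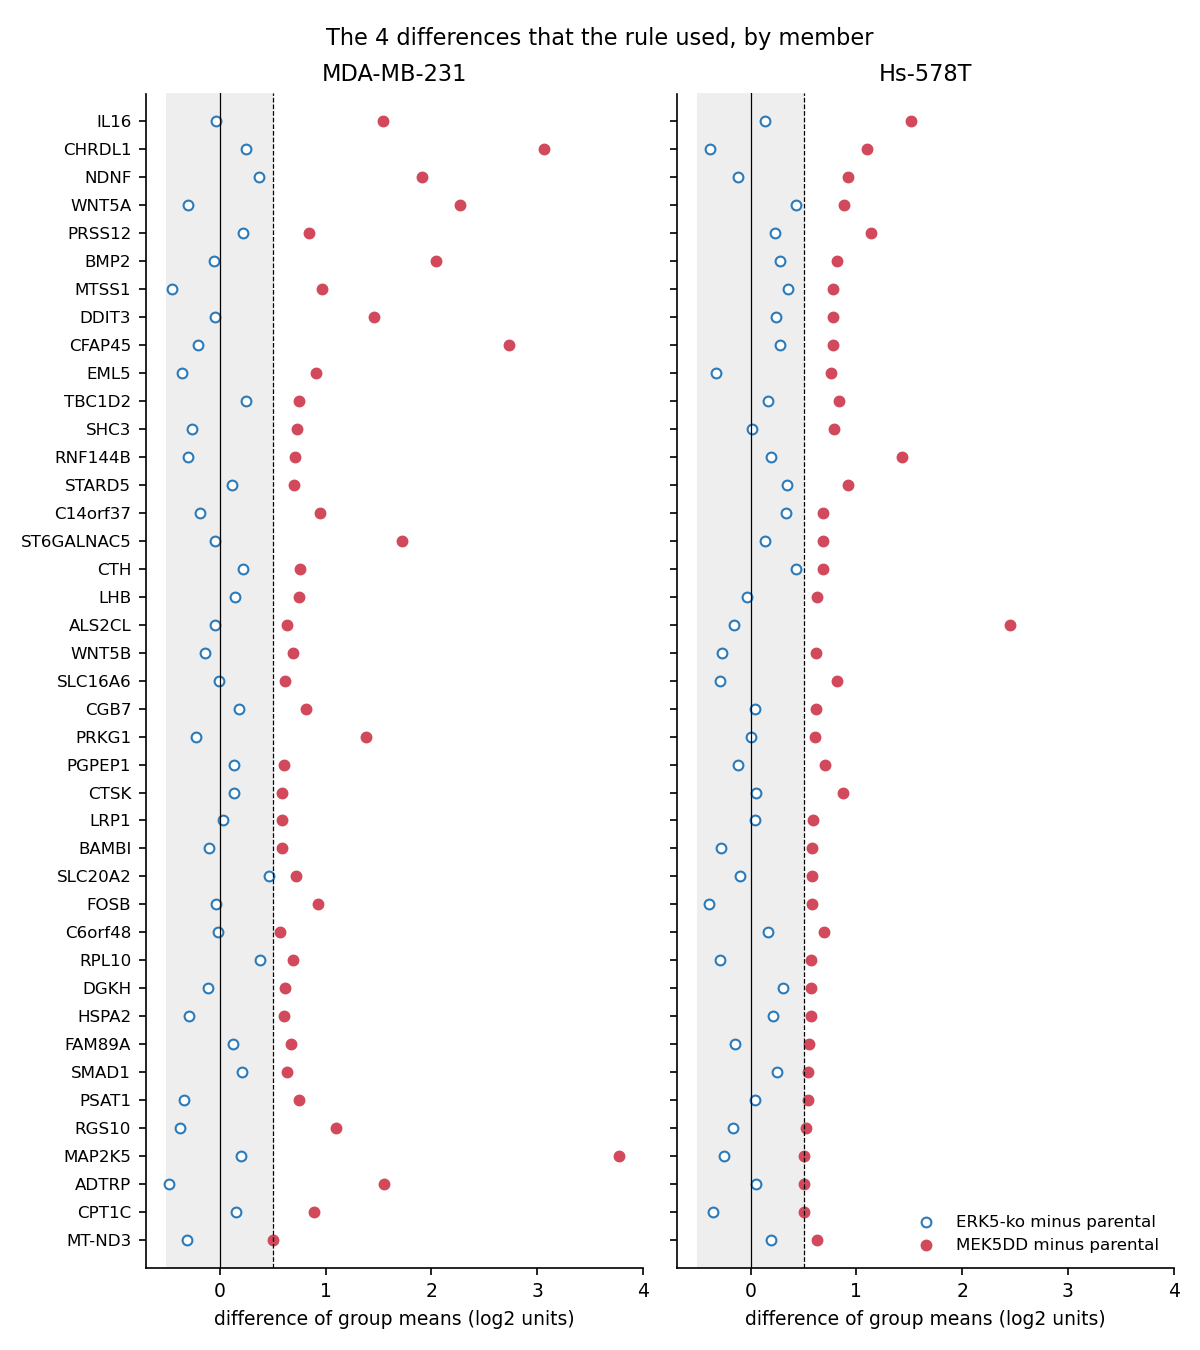
The 4 differences that the rule used for each of the 41 members, MDA-MB-231 on the left and Hs-578T on the right, in log2 units of RPKM + 0.5: MEK5DD minus parental (red, filled) and ERK5-ko minus parental (blue, open). The grey band marks the ERK5-ko window of 0.5 on either side, and members are ordered by the smaller of their MEK5DD differences, from IL16 (1.52) to MT-ND3 (0.50).

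Promoters of the members were read for motifs of factors at the end of the cascade, in windows from 250 bases before to 50 bases after the start of the RefSeq gene model in GRCh38.p14. Of the 41 members, 32 had such a window, as had 10868 of the 13737 tested genes. On either strand, the AP-1 motif TGANTCA was present in 2 members (6.25%) and in 4.64% of tested genes, the Kruppel-like factor motif CACCC in 20 members (62.5%) against 63.1%, TGACG, the end of the cAMP response motif, in 10 (31.2%) against 33.8%, and the E-box CANNTG in 20 (62.5%) against 60.3%. The whole cAMP response motif TGACGTCA, which contains TGACG on each strand, and the MEF2 consensus were in 0 member windows and in 3.17% and 1.47% of tested genes. The median GC content was 63.8% for members and 65.0% for tested genes. These matches describe the letters of the windows and are not binding sites. The RefSeq start can lie inside the deposited gene model, so a window need not be the promoter of the RNA measured. On the minus strand, the WNT5A gene model runs to 55490539 but its window only to 55487556. The windows of IL16, WNT5B, PRKG1, ADTRP and CGB7 also lie within their gene models. Shown with the motif in capitals are both windows with the AP-1 motif, the windows of FOSB and CTH with TGACG, and those of the secreted regulators WNT5A and CHRDL1 with CACCC, since these genes carry the results on stress, Wnt and BMP genes. The windows lie at chr12:57520465-57520764 (DDIT3, minus strand), chr4:145481056-145481355 (SMAD1, plus), chr19:45467746-45468045 (FOSB, plus), chr1:70411018-70411317 (CTH, plus), chr3:55487257-55487556 (WNT5A, minus) and chrX:110795768-110796067 (CHRDL1, minus), and the capitals begin at positions -241, -45, -60, -147, -136 and -67 from the start. The last bases of the AP-1 motif of DDIT3 also begin a CACCC.
DDIT3: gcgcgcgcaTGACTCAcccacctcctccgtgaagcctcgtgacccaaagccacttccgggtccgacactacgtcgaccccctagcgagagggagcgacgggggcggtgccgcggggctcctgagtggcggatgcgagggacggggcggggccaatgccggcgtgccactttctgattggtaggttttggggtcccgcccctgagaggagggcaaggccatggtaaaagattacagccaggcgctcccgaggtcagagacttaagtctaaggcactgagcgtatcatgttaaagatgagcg
SMAD1: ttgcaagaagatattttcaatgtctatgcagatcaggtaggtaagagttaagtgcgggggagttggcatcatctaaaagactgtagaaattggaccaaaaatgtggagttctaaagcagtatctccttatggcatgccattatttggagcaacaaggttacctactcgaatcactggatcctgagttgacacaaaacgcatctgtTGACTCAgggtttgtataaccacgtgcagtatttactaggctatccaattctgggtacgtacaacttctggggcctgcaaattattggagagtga
FOSB: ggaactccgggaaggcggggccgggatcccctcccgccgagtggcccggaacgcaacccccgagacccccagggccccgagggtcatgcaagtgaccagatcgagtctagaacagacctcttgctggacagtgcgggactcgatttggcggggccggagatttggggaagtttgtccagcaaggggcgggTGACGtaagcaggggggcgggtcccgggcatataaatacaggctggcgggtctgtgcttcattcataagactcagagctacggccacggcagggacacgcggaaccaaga
CTH: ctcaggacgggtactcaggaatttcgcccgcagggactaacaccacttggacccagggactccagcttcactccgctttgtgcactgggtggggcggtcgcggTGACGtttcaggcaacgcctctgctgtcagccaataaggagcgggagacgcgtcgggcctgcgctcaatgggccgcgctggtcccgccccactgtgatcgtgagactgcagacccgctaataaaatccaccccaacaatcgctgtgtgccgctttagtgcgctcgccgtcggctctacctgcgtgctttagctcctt
WNT5A: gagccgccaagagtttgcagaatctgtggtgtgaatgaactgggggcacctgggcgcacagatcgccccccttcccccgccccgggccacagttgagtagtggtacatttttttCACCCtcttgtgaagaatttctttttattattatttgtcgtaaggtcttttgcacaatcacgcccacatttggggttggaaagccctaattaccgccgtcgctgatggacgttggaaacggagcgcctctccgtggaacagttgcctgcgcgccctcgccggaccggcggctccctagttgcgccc
CHRDL1: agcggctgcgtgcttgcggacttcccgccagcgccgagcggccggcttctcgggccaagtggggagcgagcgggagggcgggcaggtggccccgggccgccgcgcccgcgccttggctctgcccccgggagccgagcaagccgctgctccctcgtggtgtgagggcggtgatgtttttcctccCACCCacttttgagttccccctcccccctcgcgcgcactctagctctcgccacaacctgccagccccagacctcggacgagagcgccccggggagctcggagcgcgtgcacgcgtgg

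By what their products are known to do, the members fall into 8 groups, of which secreted signals and their modulators (8 members), intracellular signalling (9) and metabolism and transport (8) are the most numerous. The secreted group had the highest median MEK5DD difference of the 8 groups in MDA-MB-231, at 1.72 log2 units, and a median of 0.85 in Hs-578T, a description of values that the rule used. It holds a pair of Wnt ligands, BMP2 and the BMP antagonist CHRDL1.

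WNT5A (chromosome 3, 55465715 to 55490539, minus strand of GRCh38), a ligand of the non-canonical Wnt pathway, was measured at 104, 125, 156, 152, 203 and 219 RPKM in the parental, ERK5-ko and MEK5DD pairs of Hs-578T. In MDA-MB-231 the parental libraries held 0.191 and 0.0509 RPKM, the ERK5-ko libraries 0 and the MEK5DD libraries 2.53 and 2.42. Every Hs-578T library was thus far above every MDA-MB-231 library, including those of MEK5DD cells. The MDA-MB-231 values rest on 10 and 3 parental reads and 129 and 142 MEK5DD reads, a ratio of 21.1 per total reads (95% interval 12.2 to 40.2, exact, counting error only). The 0 reads of the ERK5-ko pair allow up to 0.0597 RPKM, taking 3 reads per library as the floor. The difference from parental was 2.27 log2 units for MDA-MB-231 and 0.88 for Hs-578T. WNT5B (chromosome 12), its close relative, was expressed in both lines, at 22.1 and 22.4 RPKM in parental and 36.7 and 35.7 in MEK5DD MDA-MB-231, and at 61.7 and 63.0 in parental and 88.8 and 104 in MEK5DD Hs-578T. Its ERK5-ko libraries lay slightly below parental in both lines, at 19.96 and 20.24 RPKM in MDA-MB-231 and 52.6 and 50.5 in Hs-578T.

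BMP2 (chromosome 20, 6767664 to 6780280, plus strand), a secreted ligand of the bone morphogenetic protein pathway, showed the same order of groups as WNT5A. In MDA-MB-231 it held 2 and 2 parental reads, 0 and 0 ERK5-ko reads and 151 and 154 MEK5DD reads, which is 0.0225 and 0.02 RPKM against 1.75 and 1.54, a ratio of 77.3 per total reads (95% interval 29.9 to 286). In Hs-578T it was at 2.97 and 3.51 RPKM in parental, 3.79 and 4.28 in ERK5-ko and 6.04 and 6.15 in MEK5DD libraries. CHRDL1 (chromosome X, 110673856 to 110795819, minus strand) encodes chordin-like 1, which binds BMP ligands outside the cell. It was at 0.571 and 0.555 RPKM in parental MDA-MB-231, 0.801 and 0.724 in ERK5-ko and 8.96 and 7.76 in MEK5DD, a difference of 3.06 log2 units. In Hs-578T its parental libraries held 2.12 and 2.47 RPKM, the ERK5-ko libraries 1.68 and 1.62 and the MEK5DD libraries 6.44 and 4.64, a difference of 1.10. No MEK5DD library of either line overlapped a parental or ERK5-ko library for BMP2 or CHRDL1.

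IL16 (chromosome 15, 81159575 to 81314058, plus strand), the precursor of a chemoattractant cytokine for CD4-bearing cells, had the largest smaller-of-both difference of all members, 1.54 log2 units for MDA-MB-231 and 1.52 for Hs-578T. In MDA-MB-231 it went from 1 and 1 parental reads and 0 and 0 ERK5-ko reads to 69 and 71 MEK5DD reads, or 1.05 and 0.94 RPKM, a ratio of 71.0 per total reads (95% interval 19.3 to 592). In Hs-578T it was at 2.57 and 3.07 RPKM in parental, 2.98 and 3.33 in ERK5-ko and 8.68 and 9.27 in MEK5DD libraries. Its end shares 5006 bases with STARD5 on the opposite strand, also a member, and how reads in overlaps were assigned is not given in the sources used here. NDNF, a secreted neurotrophic factor, was at 0.494 and 0.322 RPKM in parental and 2.71 and 3.11 in MEK5DD MDA-MB-231, and at 7.48 and 9.55 in parental and 17.9 and 15 in MEK5DD Hs-578T. LHB and CGB7 encode beta subunits of gonadotropins and lie 37184 bases apart on chromosome 19. LHB held at most 8 reads in any library and is barely detected. CGB7 held 10 and 3 parental and 22 and 31 MEK5DD reads in MDA-MB-231, and 39 and 26 against 74 and 39 in Hs-578T, and 11.6% of its 50-base stretches also occur in other members of its gene family. CGB7 also shares 3068 bases of the same strand with NTF4, whose MEK5DD differences were 0.53 and 0.43 log2 units.

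**Figure D3:**
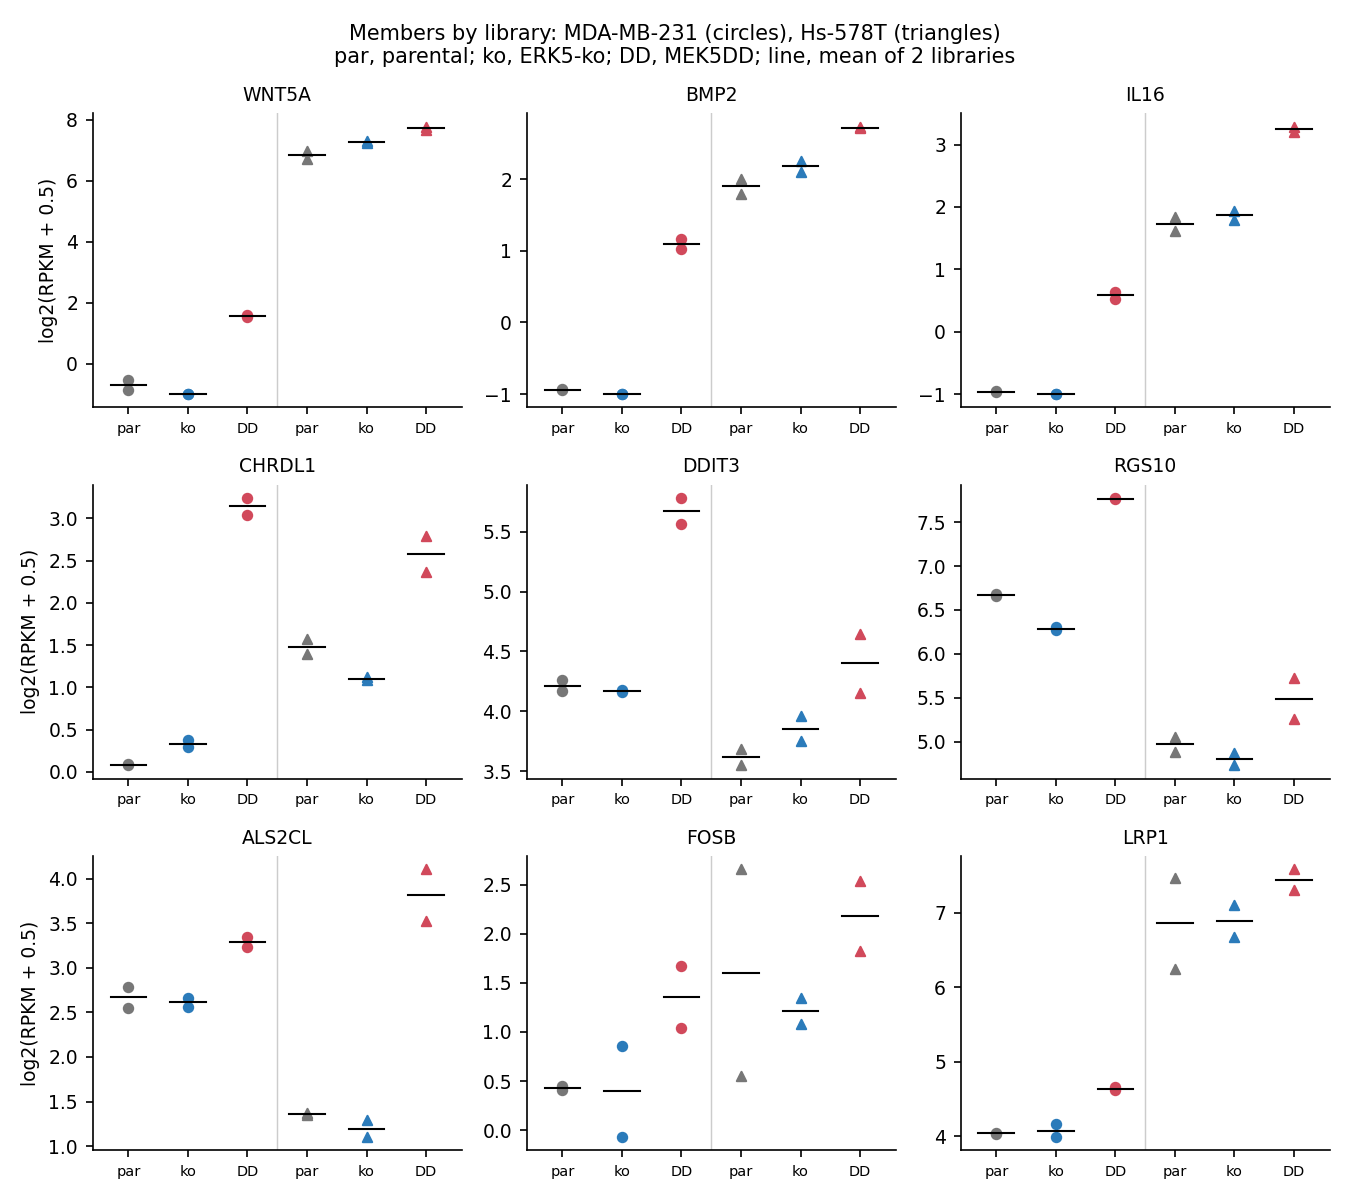
log2(RPKM + 0.5) of 9 members in each of the 12 libraries, MDA-MB-231 as circles and Hs-578T as triangles, for parental (par), ERK5-ko (ko) and MEK5DD (DD) cells, with a bar at the mean of each pair; each panel has its own vertical scale. WNT5A, BMP2 and IL16 are near the floor in parental and ERK5-ko MDA-MB-231 only, and the parental Hs-578T pair is far apart for FOSB (5.81 and 0.969 RPKM) and LRP1 (75.1 and 177 RPKM).

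Of the 4 membrane proteins, BAMBI, a decoy receptor that dampens TGF-beta and BMP signals, was at 2.995 and 3.985 RPKM in parental and 5.45 and 5.47 in MEK5DD MDA-MB-231, and at 21.4 and 18.8 in parental and 32.6 and 28.3 in MEK5DD Hs-578T. Its ERK5-ko libraries held 3.14 and 3.24 RPKM in MDA-MB-231 and 16.9 and 15.9 in Hs-578T. LRP1, an endocytic receptor of the low-density lipoprotein receptor family, was separated in MDA-MB-231, at 15.9 and 16.1 RPKM in parental and 24.0 and 24.7 in MEK5DD libraries. In Hs-578T the parental libraries held 75.1 and 177 RPKM and the MEK5DD libraries 158 and 191, so the groups overlapped, and without parental replicate 1 the difference was -0.03 log2 units in place of 0.59. The gene length behind the RPKM values followed the mean length of a gene's annotated transcripts (median ratio 0.996), which for LRP1 is 2616 bases against 14897 in its longest transcript, for IL16 2724 against 9616 and for WNT5A 2119 against 6176. RPKM values are therefore compared between libraries and not between such genes. ADTRP, a membrane hydrolase, was at 0.766 and 0.932 RPKM in parental and 3.561 and 3.304 in MEK5DD MDA-MB-231, but held at most 18 reads in any Hs-578T library. C14orf37, a membrane protein of unsure role, had differences of 0.95 and 0.68 log2 units.

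Among signalling genes, MAP2K5 (chromosome 15, 67542709 to 67807123, plus strand), the gene of MEK5 itself, differed most between the lines. MDA-MB-231 held 12.9 and 13.6 RPKM in parental, 15.6 and 14.8 in ERK5-ko and 188 and 184 in MEK5DD libraries, 14.1 times the parental mean. Hs-578T held 14.6 and 16.9, 12.5 and 13.8, and 21.3 and 23.8 RPKM, 1.43 times the parental mean. Reads of the introduced MEK5DD and of the cell's own MAP2K5 cannot be told apart in these values, so the part of the construct in this member is not known for either line. The total MAP2K5 RNA of MEK5DD cells was thus unequal between the lines, and its part in the other differences was not tested.

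SMAD1, the intracellular mediator of BMP receptors, was at 5.19 and 4.80 RPKM in parental and 8.44 and 7.58 in MEK5DD MDA-MB-231, and at 11.04 and 10.59 in parental and 15.4 and 16.6 in MEK5DD Hs-578T. With BMP2, CHRDL1 and BAMBI, a ligand, an antagonist, a decoy receptor and a mediator of the same pathway were thus members, which says nothing of the pathway's activity. RGS10, which shortens G protein signals, was at 100 and 102 RPKM in parental, 78.4 and 76.7 in ERK5-ko and 216 and 218 in MEK5DD MDA-MB-231. In Hs-578T it was at 28.98 and 32.85, 26.07 and 28.86, and 52.4 and 37.7 RPKM. The MEK5DD pair of Hs-578T was therefore further apart than its parental and ERK5-ko pairs were from each other. PRKG1, the cGMP-dependent kinase, held 15 and 15 parental, 5 and 3 ERK5-ko and 138 and 118 MEK5DD reads in MDA-MB-231. Its ERK5-ko mean RPKM there was 0.298 times parental. In Hs-578T it was at 2.23 and 2.84 RPKM in parental, 2.58 and 2.47 in ERK5-ko and 3.41 and 4.96 in MEK5DD libraries.

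ALS2CL, a relative of the Rab regulator alsin, had the largest difference of any member in Hs-578T, 2.45 log2 units, at 2.05 and 2.09 RPKM in parental, 1.65 and 1.94 in ERK5-ko and 16.7 and 11 in MEK5DD libraries. In MDA-MB-231 it was at 5.38 and 6.37 RPKM in parental and 8.94 and 9.68 in MEK5DD libraries. RNF144B, an E3 ubiquitin ligase, was also further from parental in Hs-578T (1.43 log2 units, 0.463 and 0.511 against 2.25 and 2.06 RPKM) than in MDA-MB-231 (0.71, 2.11 and 1.94 against 3.40 and 3.87 RPKM). The other signalling members, the adaptor SHC3, the Rab7 regulator TBC1D2 and the lipid kinase DGKH, had differences between 0.57 and 0.84 log2 units in both lines.

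DDIT3 (chromosome 12, 57516588 to 57520517, minus strand), which encodes the stress factor CHOP, was the transcription factor with the clearest separation. It was at 17.5 and 18.7 RPKM in parental, 17.6 and 17.4 in ERK5-ko and 46.9 and 54.5 in MEK5DD MDA-MB-231. In Hs-578T it was at 12.4 and 11.2 RPKM in parental, 15.03 and 12.97 in ERK5-ko and 24.6 and 17.3 in MEK5DD libraries. DDIT3 shares 982 bases with MARS on the opposite strand, whose own MEK5DD differences were 0.42 and 0.14 log2 units. FOSB shares 7185 with ERCC1, also opposite (0.45 and -0.13). FOSB, an AP-1 subunit made within minutes of a stimulus, was at 0.828 and 0.864 RPKM in parental, 0.454 and 1.31 in ERK5-ko and 2.68 and 1.56 in MEK5DD MDA-MB-231. In Hs-578T its parental libraries held 5.81 and 0.969 RPKM and its MEK5DD libraries 5.33 and 3.05, so the groups overlapped, and without parental replicate 2 the difference was -0.47 log2 units in place of 0.58. HSPA2, a chaperone of the HSP70 family, had differences of 0.61 and 0.57.

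Amino acid metabolism was represented by PSAT1 and CTH. PSAT1, an enzyme of serine synthesis and, like DDIT3, a known target of the stress factor ATF4, was at 68.8 and 69.2 RPKM in parental, 54.2 and 54.6 in ERK5-ko and 112 and 121 in MEK5DD MDA-MB-231. In Hs-578T it was at 132 and 107, 114 and 131, and 160 and 186 RPKM. CTH, which makes cysteine from cystathionine, was at 14.7 and 13.3 RPKM in parental and 22.7 and 25.6 in MEK5DD MDA-MB-231, and at 7.18 and 9.05 in parental, 10.9 and 11.3 in ERK5-ko and 12.9 and 13.5 in MEK5DD Hs-578T. Of the other 22 tested genes of an ATF4 and amino acid stress list, 4 were called higher (SESN2, SLC7A11, CEBPG and SLC3A2) and 1 lower (PHGDH) in MEK5DD MDA-MB-231, and 2 were called higher (TRIB3 and DDIT4) in MEK5DD Hs-578T. A call needed an adjusted p under 0.05 (limma, Benjamini-Hochberg over the 13737 genes) and a fold above 1.5 or below 0.5. In MEK5DD MDA-MB-231, 7.64% of all tested genes were called higher and 6.31% lower. For MEK5DD Hs-578T the shares were 2.9% and 1.49% (398 and 204 genes), and voom on whole reads called 453 and 458. The median difference of the 22 genes was 0.30 and 0.10 log2 units, against -0.01 and -0.08 over all tested genes. ATF4 itself was 0.51 log2 units above parental in MDA-MB-231 (adjusted p = 0.000294, limma), under the fold threshold, and 0.09 in Hs-578T (adjusted p = 0.472, limma).

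In the rest of the metabolic group, ST6GALNAC5, a sialyltransferase, was at 0.685 and 0.515 RPKM in parental and 3.06 and 3.15 in MEK5DD MDA-MB-231, and at 3.99 and 4.34 in parental and 6.62 and 7.30 in MEK5DD Hs-578T. STARD5, a sterol-binding protein, was at 0.763 and 0.864 against 1.996 and 1.319 RPKM in MDA-MB-231 and at 3.15 and 2.90 against 7.42 and 5.13 in Hs-578T. The phosphate transporter SLC20A2 had differences of 0.72 and 0.58 log2 units. SLC16A6, a transporter of the monocarboxylate family, held 0 to 25 reads in every library and lies wholly within ARSG on the opposite strand, whose MEK5DD differences of 0.76 and 0.78 log2 units were close to its own 0.62 and 0.82. The Hs-578T ERK5-ko pair held 2 and 0 reads of SLC16A6, against 1 and 11 in the parental pair. CPT1C, the brain form of carnitine palmitoyltransferase, overlapped between parental and MEK5DD Hs-578T (0.743 and 0.285 against 1.20 and 0.648 RPKM). MT-ND3, a subunit of respiratory complex I encoded by mitochondrial DNA, was at 738 and 703 RPKM in parental and 976 and 1064 in MEK5DD MDA-MB-231, and at 348 and 209 against 632 and 278 in Hs-578T. All 13 mitochondrial protein-coding genes were above parental in the mean of MEK5DD Hs-578T, by 0.61 (MT-CO3) to 1.35 (MT-ND4) log2 units, and between -0.14 (MT-CO2) and 0.52 (MT-ND2) in MDA-MB-231. These 13 genes were looked up after MT-ND3 was found among the members.

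Of the proteases, PRSS12, the secreted serine protease neurotrypsin, was at 9.62 and 7.83 RPKM in parental and 15.1 and 16.7 in MEK5DD MDA-MB-231, and at 13.1 and 16.5 against 28.9 and 37.8 in Hs-578T. CTSK, the collagen-degrading cathepsin K, held 13 and 13 parental and 41 and 22 MEK5DD reads in Hs-578T, and was at 0.995 and 1.51 against 2.13 and 2.11 RPKM in MDA-MB-231. The peptidase PGPEP1 had differences of 0.61 and 0.70 log2 units. CFAP45, a protein of motile cilia, differed by 2.73 log2 units in MDA-MB-231, from 0.306 and 0.436 RPKM in parental to 5.63 and 4.94 in MEK5DD, while in Hs-578T it held 11 and 7 parental and 25 and 23 MEK5DD reads. The microtubule-binding EML5 and the actin regulator MTSS1 had differences of 0.91 and 0.76, and of 0.97 and 0.78, log2 units. EML5 is low, and its ERK5-ko mean RPKM was 0.451 times parental in MDA-MB-231 and 0.523 times in Hs-578T. RPL10, a protein of the large ribosomal subunit and the member of highest level, was at 505 and 507 RPKM in parental, 638 and 678 in ERK5-ko and 824 and 806 in MEK5DD MDA-MB-231. In Hs-578T it was at 945 and 713, 669 and 668, and 1335 and 1106 RPKM. Of the other 80 tested entries of ribosomal protein genes 4 were called higher in MDA-MB-231 (limma) and 0 were called in Hs-578T, where 2 had an unadjusted p under 0.05 and voom on whole reads also called 0, with medians of 0.32 and 0.10 log2 units. C6orf48, a host gene of small nucleolar RNAs, had differences of 0.57 and 0.69, and FAM89A of 0.67 and 0.55.

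The other genes of the ERK5 cascade were tested in the same contrasts, with the members left out. Of 36 genes in a list of kinases, transcription factors and targets of the cascade, 35 were tested and MAP2K5 was the member. Of the other 34, 7 were called in MEK5DD MDA-MB-231 (5 higher, 2 lower) and 3 in MEK5DD Hs-578T (2 higher, 1 lower; limma, to be read against the shares of all tested genes above). The medians of the 34 were 0.27 and 0.01 log2 units. CXCL8, the chemokine interleukin 8, was called higher in both lines, by 0.93 log2 units in MDA-MB-231 (adjusted p = 0.0156, limma) and 1.66 in Hs-578T (adjusted p = 0.00131, limma). Its MEK5DD libraries were at 54.3 ± 0.205 RPKM (SD, n = 2) in MDA-MB-231 and 46.8 ± 22.9 (SD, n = 2) in Hs-578T, while the test used the same spread for both. CXCL8 was not a member, since its ERK5-ko mean was also higher than parental, by 0.54 and 0.87. The other genes called higher in MDA-MB-231 were SOX4 (1.19), HMOX1 (1.02), the kinase SGK1 (0.88) and MEF2B (0.77), and those called lower were THBD (-1.69) and VEGFA (-1.45). In Hs-578T the cell cycle regulator CCND1 was called higher (0.83) and the Notch ligand JAG1 lower (-1.29). KLF2 and KLF4 were not called in either line: KLF2 differed by 0.26 and -0.16 log2 units and KLF4 by 0.27 and -0.54, with adjusted p = 0.357 and 0.643 for KLF2 and 0.0695 and 0.00556 for KLF4 (limma), the last of these under the p threshold but not past the fold of 0.5.

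Other genes of the BMP and Wnt pathways were counted in the same way. Of 26 tested genes of a TGF-beta and BMP list that were not members, 7 were called in MEK5DD MDA-MB-231 (3 higher, 4 lower) and 6 in MEK5DD Hs-578T (5 higher, 1 lower; limma), with medians of -0.19 and 0.05 log2 units. Both directions occurred among ligands and targets of the BMP pathway, but the higher calls named here were of genes near the floor. BMP6 (1.01, adjusted p = 5.21e-05, limma) and the target ID2 (0.62, adjusted p = 0.0279, limma) were called higher in MDA-MB-231. BMP6 rose there from a mean of 0.0608 to 0.631 RPKM, and ID2 from 0.285 to 0.723. ID2 was well expressed in Hs-578T, at 49.7 RPKM in parental and 32.6 in MEK5DD libraries (-0.62, not called). ID3 was lower without a call in each line (MDA-MB-231: -0.61, Hs-578T: -0.51). BMP4, a ligand related to BMP2, was called lower in MDA-MB-231 (-1.24, adjusted p = 1.35e-06, limma) and differed by 0.34 in Hs-578T. ID1, a target of BMP signals, differed by 0.03 in MDA-MB-231 and was called lower in Hs-578T (-1.15, adjusted p = 0.000621, limma). Of 29 Wnt genes that were not members, 7 were called in each line, with 3 higher in MDA-MB-231 against 4 higher in Hs-578T, with medians of -0.17 and 0.00. LEF1, a transcription factor of the canonical pathway, was called higher in both lines (1.77 and 0.75, adjusted p = 2.02e-06 and 0.00357, limma) but its ERK5-ko mean in MDA-MB-231 was 1.04 lower than parental. ROR1, a receptor of WNT5A, was called lower in MDA-MB-231 (-1.50, adjusted p = 1.87e-05, limma), and WNT7B was too (-2.56, adjusted p = 2.17e-08, limma). Of 19 other AP-1 and immediate early genes, 0 were called in MDA-MB-231 (limma), where 6 had an unadjusted p under 0.05 and voom on whole reads also called 0. EGR1 came near a call there, at 3.48 ± 0.0646 RPKM (SD, n = 2) in parental and 7.66 ± 0.318 in MEK5DD libraries (1.04, adjusted p = 0.0508, limma). The spread used in that test also took in the Hs-578T pairs of EGR1, at 17.7 ± 10.6 in parental and 14.9 ± 8.18 in MEK5DD libraries. In Hs-578T, 2 of the 19 genes were called higher, EGR2 (1.42) and EGR3 (0.61).

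The level of the members in parental MDA-MB-231 against parental Hs-578T is a comparison that the rule did not make, although the same 4 parental libraries entered it. Of the 41 members, 19 (46.3%) were called higher in parental Hs-578T and 11 (26.8%) in parental MDA-MB-231, with the fold above 1.5 taken in either direction (limma, adjusted p under 0.05), and 11 were not called. Over all tested genes, 23.5% were called higher in Hs-578T and 34.1% in MDA-MB-231. The median difference, MDA-MB-231 minus Hs-578T, was -0.28 log2 units for the members and 0.19 for all tested genes. With median-ratio scaling the median of all genes was -0.02 and 20 members were called higher in Hs-578T and 7 in MDA-MB-231. The parental libraries of the lines did not overlap for any of the 30 members called.

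WNT5A led the members higher in Hs-578T, with 115 ± 14.7 RPKM (SD, n = 2) against 0.121 ± 0.099 (SD, n = 2) in MDA-MB-231, a difference of -7.54 (SE 0.125, adjusted p = 5.14e-13, limma). NDNF followed at 8.52 ± 1.46 against 0.408 ± 0.122 RPKM (-3.31, SE 0.152, adjusted p = 1.98e-09, limma), and BMP2 at 3.24 ± 0.386 against 0.0212 ± 0.00176 RPKM (-2.84, SE 0.112, adjusted p = 5.08e-10, limma). Of the 8 secreted members, 7 were called higher in Hs-578T, the exception being LHB, and BAMBI (-2.38) and SMAD1 (-1.04) were called higher there too. Higher in MDA-MB-231 were TBC1D2, at 37 ± 2.19 against 3.84 ± 0.365 RPKM (3.11, SE 0.126, adjusted p = 6.32e-10, limma), CPT1C (1.77, SE 0.224) and RGS10 (1.70, SE 0.132). The 3 smallest differences among called members higher in MDA-MB-231 were those of DDIT3 (0.60), CTSK (0.64) and ADTRP (0.64), each of which lost its call under a pseudocount of 1 and under median-ratio scaling. MAP2K5 did not differ by the fold required (-0.24, adjusted p = 0.0468, limma), and FOSB was not called (-1.18, SE 0.535, adjusted p = 0.0631, limma).

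**Figure D4:**
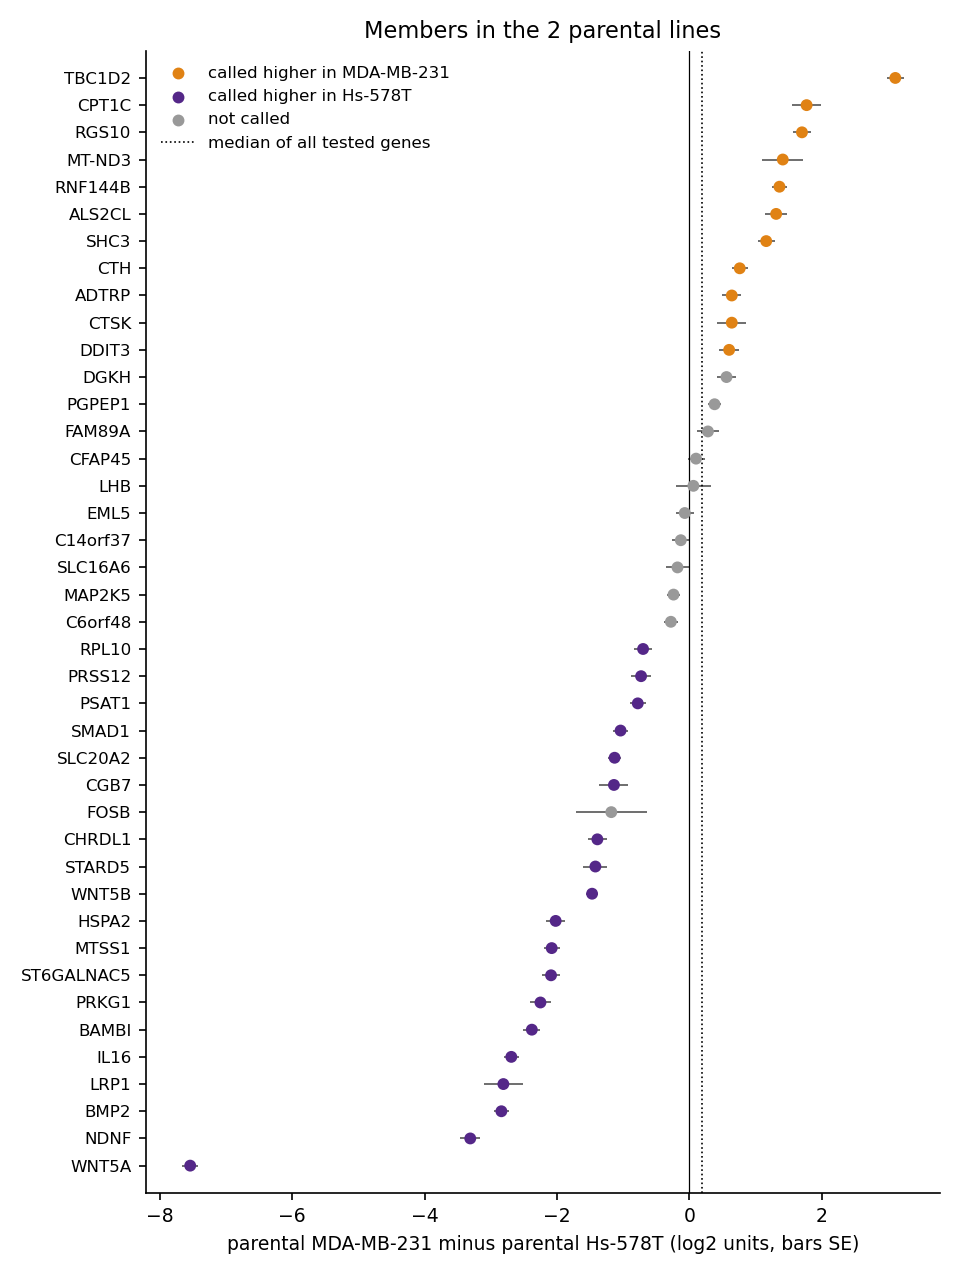
Parental MDA-MB-231 minus parental Hs-578T for each member, in log2 units of RPKM + 0.5 with the standard error from limma (2 libraries a group), coloured by the call; the dotted line marks the median of all tested genes, 0.19. WNT5A stands far to the left at -7.54 and TBC1D2 to the right at 3.11.

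How far membership depends on particular libraries was read by applying the rule to the replicate 1 libraries and to the replicate 2 libraries apart. Replicate 1 libraries alone chose 50 genes and replicate 2 libraries alone 44, and 18 genes were chosen by both, 36.0% and 40.9% of the lists. Of the 50 genes chosen on replicate 1, 23 (46.0%) had both MEK5DD differences at 0.5 or more in the replicate 2 libraries. Over all tested genes the share was 0.83%. The replicate 2 libraries entered that choice only through the filter on low values. They are consecutive passages of the same lines, however, and not an independent repeat. The 50 genes had a median MEK5DD difference in the replicate 2 libraries of 0.68 for MDA-MB-231 and 0.57 for Hs-578T, against 0.77 and 0.73 in the libraries that chose them. Of the 44 genes chosen on replicate 2, 26 (59.1%) had both differences at 0.5 or more in replicate 1, against 0.881% of all tested genes, with medians of 0.75 and 0.62. Replicates of the same number share no library, but the deviations of parental and MEK5DD Hs-578T libraries of the same number were correlated across genes (r = 0.541 over 13737 genes, which are not independent).

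Of the 41 members, 18 met the rule on each replicate alone and 4 on neither, LRP1, FOSB, DGKH and MT-ND3. Leaving out each of the 12 libraries in turn kept between 27 and 41 of the members. The fewest were kept without parental Hs-578T replicate 2 (27), MEK5DD Hs-578T replicate 1 (30) and parental Hs-578T replicate 1 (32). Whichever library was left out, 16 members remained, and 14 of them also under both other pseudocounts and both scalings: IL16, CHRDL1, BMP2, WNT5B, PRSS12, DDIT3, TBC1D2, SHC3, RNF144B, ALS2CL, ST6GALNAC5, C14orf37, PGPEP1 and C6orf48. MT-ND3 was lost most often, in 5 of the 12, and its difference in Hs-578T was 0.04 log2 units without MEK5DD replicate 1 in place of 0.63, while that of RGS10 was 0.28 in place of 0.52. WNT5A was lost without parental Hs-578T replicate 2, where its ERK5-ko difference left the window, and also with a pseudocount of 0.1. MAP2K5 was lost without parental Hs-578T replicate 1 or MEK5DD Hs-578T replicate 2, and also with a pseudocount of 1.

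**Figure D5:**
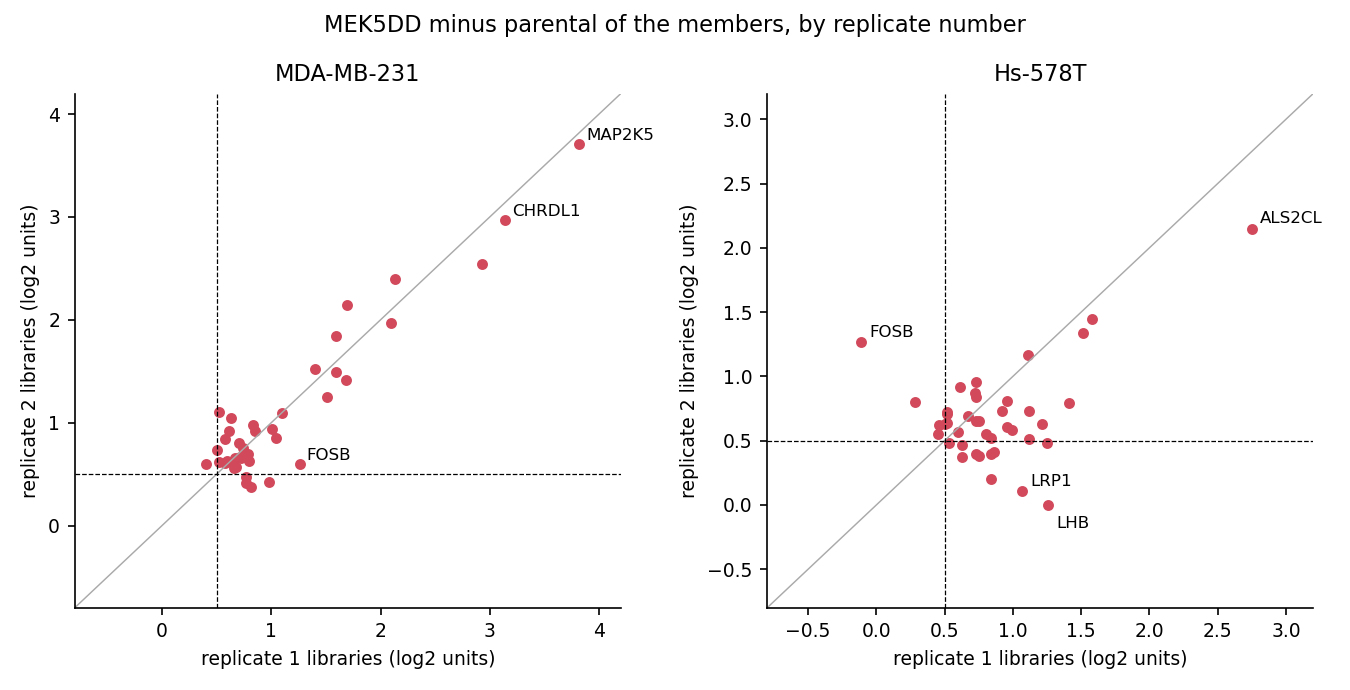
MEK5DD minus parental difference of the 41 members from replicate 1 libraries (horizontal) and replicate 2 libraries (vertical), in log2 units, for MDA-MB-231 (left) and Hs-578T (right); dashed lines mark 0.5 and the grey line equality. Far from the line of equality are FOSB (-0.11 and 1.27), LHB (1.26 and 0.00) and LRP1 (1.07 and 0.11) in Hs-578T, and, less far, FOSB (1.26 and 0.60), CGB7 (0.52 and 1.10) and STARD5 (0.98 and 0.42) in MDA-MB-231.

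Few members lay close together. The 5006 bases shared by IL16 and STARD5 were the only overlap between members, and other pairs under 1000000 bases apart were LHB, CGB7 and CPT1C on chromosome 19 and DDIT3 and LRP1, 303236 bases apart on chromosome 12. Of the 41 members, 22 overlapped another listed gene, 17 of them on the opposite strand. Members were expressed at a median of 5.73 RPKM over the 12 libraries, against 15.1 for all tested genes, and 4 had a mean under 1 RPKM.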

How the data were processed

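RNA sequencing was analysed for 12 libraries in 6 groups. According to the submitters' processing notes, reads were trimmed with Trimmomatic (0.32) and aligned to GRCh38 with TopHat2 (2.1.1). The deposited RPKM values were made by the authors, and the counting tool and its strand setting are not given in the sources used here. The values of 100.0% of the 32152 listed genes were whole multiples of 1 read (tolerance 1e-05 reads), which gave total reads and read counts, and intervals and floors cover counting error only. Differences were taken on log2(RPKM + 0.5), which understates those of low genes. Tests used limma (3.58.1, R 4.3.3) with a variance trend over all 12 libraries and Benjamini-Hochberg adjustment over 13737 genes. Each gene was given the same spread in all 6 groups, although the parental and MEK5DD pairs of Hs-578T stood further apart. The p-values of comparisons that use these pairs may therefore be too small, and those of comparisons within MDA-MB-231 too large. Each pair of groups has 2 libraries against 2, for which an exact permutation test cannot go below p = 0.333. On simulated data for the parental comparison, 200 of 13737 genes were changed. Calls were made for 87% of those changed by 1 log2 unit, 99% of those changed by 2 and 4 of 13537 unchanged genes. In the 12 libraries, 34.1% of tested genes were called higher in parental MDA-MB-231 and 23.5% in parental Hs-578T. These parental pairs also differed in spread (chi-square per degree of freedom 3.71 and 30.7). Whether the simulated shares hold in that setting was not tested.

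Members and gene lists were chosen with earlier results of these data known. Named are the 15 members with the largest smaller MEK5DD difference at a mean RPKM of at least 1 and no overlap, members in any list or gene family, the 5 of highest RPKM, the 3 at either end of the parental difference among those called, the 3 nearest to each threshold on either side, and the ERK5 cascade. A few genes that this rule or the lists hold are not reported here. Other members were added so that each is accounted for, and other genes of the TGF-beta, Wnt, AP-1 and ATF4 lists and the mitochondrial genes were named after their values were seen. Promoters are those of RefSeq for GRCh38.p14. Alternatives were other pseudocounts, filters, scalings and thresholds, all gene types, voom on whole reads, a replicate block, the parental libraries alone, and each library left out in turn.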

Additional observations from a re-analysis of the deposited data

Results flagged for a closer look

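Among the 34 tested genes of the ERK5 cascade that were not members, 14 had a MEK5DD difference that was unequal between the lines. This was by a test of the difference itself (MDA-MB-231 minus Hs-578T in log2 units, limma interaction, Benjamini-Hochberg over 13737 genes). The share of all tested genes with such a difference is not given here, so the count cannot be read as a trait of the cascade. The test used the same spread for all groups, although the parental and MEK5DD pairs of Hs-578T stood further apart than the others. Of the 14 genes, 7 were also called in one of the lines. The value was positive for HMOX1 (1.51, SE 0.156, adjusted p = 2.4e-05, limma), JAG1 (1.4, SE 0.263, adjusted p = 0.00154, limma), SOX4 (1.13, SE 0.206, adjusted p = 0.00123, limma) and MEF2B (1.03, SE 0.185, adjusted p = 0.00117, limma). It was negative for THBD (-1.63, SE 0.151, adjusted p = 1.16e-05, limma), VEGFA (-1.18, SE 0.14, adjusted p = 6.63e-05, limma) and CCND1 (-0.98, SE 0.144, adjusted p = 0.000299, limma). THBD had means of 24.3 RPKM in parental and 7.22 in MEK5DD MDA-MB-231, against 0.257 and 0.227 in Hs-578T. The Hs-578T means lie under the pseudocount, so a fall of the MDA-MB-231 size could not show there. The THBD value therefore cannot tell a line difference from the floor. The other 7 of the 14 genes were called in neither line. Among them the value was positive for HMGB2 (1.32, adjusted p = 0.000154, limma), KLF4 (0.81, adjusted p = 0.00186, limma), AKT1 (0.69, adjusted p = 0.00214, limma), STAT3 (0.64, adjusted p = 0.0107, limma) and FOSL1 (0.57, adjusted p = 0.00443, limma), and negative for RPS6KA3 (-1.07, adjusted p = 0.00206, limma) and MEF2A (-0.86, adjusted p = 0.00642, limma). Total MAP2K5 RNA in the MEK5DD cells was also unequal, 14.1 times parental in MDA-MB-231 and 1.43 times in Hs-578T, and its part in these 14 differences was not tested. No such test was made for the members, whose MEK5DD differences chose them.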

How the results depend on the processing

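The rule gave 41 members, and 38 to 57 genes under the other pseudocounts, filters, median-ratio scaling and all gene types. Of the 41 members, a pseudocount of 0.1 kept 30 and a pseudocount of 1 kept 31. The 0.1 setting lost WNT5A, CFAP45, NDNF, PRKG1 and MTSS1 among others. The other filters, median-ratio scaling and all gene types kept 39 to 41. Quantile normalization gave 75 genes, 38 of them members, a MEK5DD threshold of log2 of 1.5 gave 26, and an ERK5-ko window of 0.25 gave 15. Leaving out 1 library gave 40 to 48 genes. Scaling moved the median MEK5DD difference of all genes in Hs-578T from -0.08 to 0.00.

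Members called higher in parental MDA-MB-231 numbered 11, and 7 with median-ratio scaling, which moved the median of all genes from 0.19 to -0.02. Leaving out 1 library gave 9 to 11, and 18 to 19 of the 19 higher in Hs-578T. Of the 30 calls, 24 held under every alternative run, the exceptions being ADTRP, CTH, CTSK, DDIT3, PRSS12 and RPL10. ERK5 cascade genes called in MEK5DD cells numbered 7 in MDA-MB-231 (6 to 9 with 1 library left out) and 3 in Hs-578T (3 to 5, the highest without parental Hs-578T replicate 1). Where a group was left with 1 library, it was assumed to vary like the others.

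In Hs-578T the MEK5DD difference of FOSB was -0.47 without parental replicate 2 and 1.63 without parental replicate 1, and that of LRP1 was -0.03 without parental replicate 1 and 1.20 without parental replicate 2. In all, 86 values of members moved by more than the spread between replicates and kept their direction, 1.63 and 1.20 among them. The cause was not tested.

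No source says what libraries of the same number in a line have in common, and with 2 numbers a pairing was not inferred, although their deviations from the group means correlated at 0.107 to 0.541 across genes. With the number as a replicate block, 11 members were called higher in parental MDA-MB-231 and 20 in parental Hs-578T, the cascade counts were 7 and 3, and 417 genes in place of 398 were called higher in MEK5DD Hs-578T. Genes called lower there numbered 204, and 458 with voom on whole reads. Depth limits LHB, SLC16A6 and CGB7 most, and the ERK5-ko levels of IL16, BMP2 and WNT5A in MDA-MB-231.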

Other observations

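Among markers of cell form, which include no members, SPARC, a secreted matrix protein, was called higher in MEK5DD cells of both lines, by 1.22 log2 units (MDA-MB-231, adjusted p = 0.000768, limma) and 0.73 (Hs-578T, adjusted p = 0.0289, limma). SPARC was low in MDA-MB-231, at 0.854 ± 0.447 RPKM (SD, n = 2) in parental and 2.6 ± 0.691 in MEK5DD libraries. In Hs-578T these means were 8010 and 13400 RPKM. In MDA-MB-231, 3 of 5 mesenchymal markers were called higher (SPARC, VIM by 1.04 and FN1 by 0.66) and 3 of 6 epithelial markers lower (CDH1, EPCAM and KRT19), while ESRP1 differed by 0.57 and was not called. CDH1 was low in MDA-MB-231 as well, at 0.645 RPKM in parental and 0.0188 in MEK5DD libraries. In Hs-578T, 1 of 5 mesenchymal markers was called higher (SPARC) and 1 of 6 epithelial markers lower (ESRP1, -1.29). These values stand beside the members' MEK5DD differences, and their part in them was not tested.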
